A study of Rattus norvegicus with 16 samples.

Results

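GW347845, a synthetic agonist of the nuclear receptor PPARγ, was compared with its vehicle in isolated rat pancreatic islets that carried a PPARγ adenovirus. The comparison rests on 8 of the 16 arrays of the series, chosen by label: 4 of PPARγ virus with compound and 4 of PPARγ virus with vehicle, matched by replicate number into 4 pairs. All 8 samples were total RNA of islets kept for 32 h with the PPARγ virus at 50 viral particles per cell. The vehicle islets then spent 16 h in 0.004% DMSO and the compound islets 16 h in 200 nM GW347845. All 8 samples therefore had the receptor virus. The labels give no DMSO content for the compound islets, so whether the solvent was matched is not known. The other 8 arrays had a null virus with the same vehicle or the same compound. Of these, 6 (replicates 1, 3 and 4) are used here to estimate the spread and to show the compound's change at the islets' own receptor level. The columns of null virus replicate 2 were 100% identical under both labels and were left out.

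PPARγ works as a dimer with a retinoid X receptor (RXR) and binds DNA at direct repeats of a short hexamer; ligand binding exchanges corepressors for coactivators. It is best known for driving fat cell formation and lipid storage, through genes of fatty acid uptake, binding, esterification and droplet coating. Drugs that activate it are used against insulin resistance. Which species the viral cDNA came from is not stated in the labels.

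The receptor's probe set read equally high on both sides. Whether intensities that high still scale with the amount of message was not tested. The Pparg probe set read 6199.1, 4939.2, 5948.3 and 5283.5 intensity in vehicle replicates 1 to 4 and 5932.1, 4593.4, 5966.4 and 5548.7 in compound replicates 1 to 4, against a mean of 33.0 in the 3 null virus vehicle arrays. Its change with compound was -0.02 ± 0.15 (log2 change ± SE, 4 pairs; adjusted p = 0.976). Values are array intensities, on which the authors had set every array to the same trimmed mean, and changes were computed on log2(intensity + 4.6), which understates the change of low genes. Beta cell genes marked the tissue as labelled: Ins1, an insulin gene, averaged 5704 ± 448 in the vehicle arrays and 5636 ± 685 in the compound arrays (SD, n = 4 each). In bulk RNA, fewer cells of a type and less RNA per cell cannot be told apart. Nothing in the labels says whether replicates were separate islet preparations. With a term for each replicate pair, the p-values measure the spread of the changes within the pairs of both viruses. That spread may be technical. Fits without the pair term also take in the spread between replicates.

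With compound, 36 probe sets rose and 4 fell at an adjusted p of at most 0.05, out of 10078 tested (0.397% called, 0.357% as rises and 0.0397% as falls; limma with a term for each replicate pair, Benjamini-Hochberg adjustment). At an unadjusted p under 0.05 there were 878, or 8.71%. The 36 rises held 34 genes, 1 probe set that names both Cd36 and Cd36l1, and 1 that names no gene. Of the 34 genes, 12 belonged to lists of fat metabolism: fatty acid uptake, lipid droplets, triglyceride synthesis, peroxisomes, mitochondrial fatty acid oxidation or secreted factors of fat cells. Another 17 lay in no list. Rises were mostly modest: 14 were at least 2-fold (0.228% of all tested probe sets were), 15 lay between 1.5-fold and 2-fold and 7 were below 1.5-fold. Every one of the 36 was higher in 4 of 4 pairs and each of the 4 falls was lower in 4 of 4, which across all tested probe sets was true of 7.76% and 10.4%. In 20 rises every compound array stood above every vehicle array, a state found in 0.645% of tested probe sets. The call used the same arrays as these counts, so they describe it and do not test it. A probe set was tested if it was above an intensity of 39.3 in at least 4 arrays. Of the 36 rises 5 (Cd36 alone, Igf1, Plek, Ang and Lratd1) and of the 4 falls 1 (the probe set without a gene) reached that limit only through the PPARγ virus group where they were high. These had to differ, so they are given below as intensities, with no fold or p. The counts and medians over the calls, here and below, still include them. That holds for the folds, overlaps, fits without the pair term, null virus changes and pair medians. List counts and list medians below also keep such probe sets, called or not. Of the 10078 tested, 346 reached the limit in this way.

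The count of calls depended on the pairing. Without the pair term the same 14 arrays gave 6 calls (0.0595%; 2.93% had an unadjusted p under 0.05), all rises and all among the 36: Fabp4, G0s2, Angptl4, both Cd36 probe sets and Acsl1. Leaving out a pair lowered the count to 16 without replicate 1, 21 without replicate 2, 17 without replicate 3 and 18 without replicate 4. In all 4 of those fits 12 probe sets passed, namely Fabp4, G0s2, Cd36/Cd36l1, Gsta4, Angptl4, Mgst1, Pdpn, Gpd1, Srp9, Dgat2, Igfbp1 and the rising probe set without a gene. Of the other calls 1 passed in 3 of the fits, 2 in 2, 10 in 1 and 15 in 0. Cd36 alone, which was not tested in those fits, counts among the 15.

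**Figure D1:**
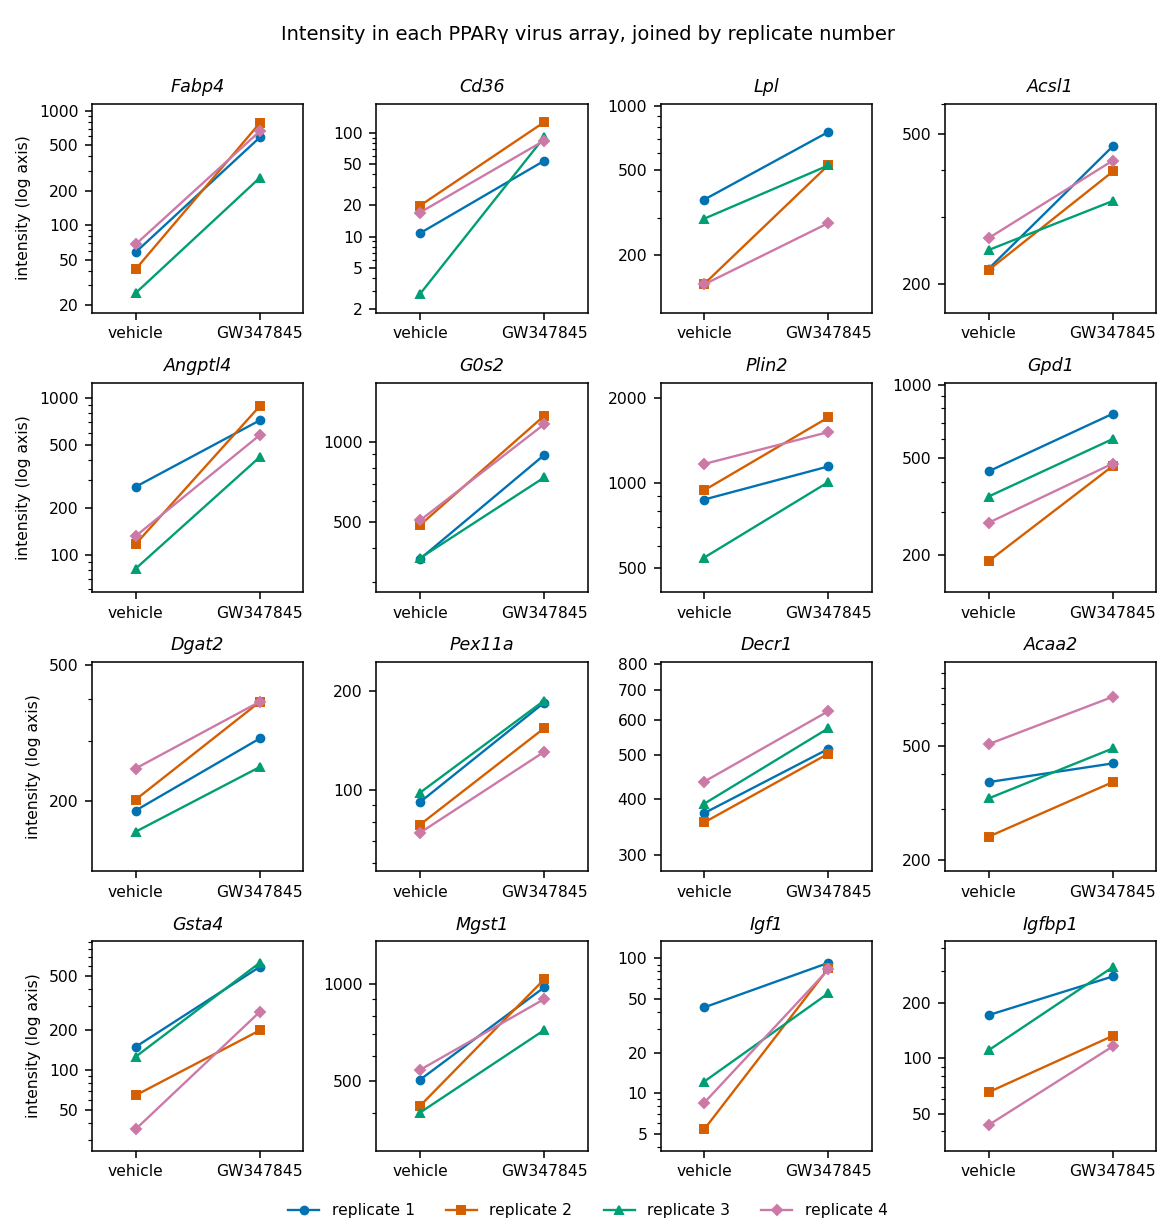
Deposited intensity on a log axis (arbitrary array units) in the 4 vehicle and 4 GW347845 arrays of the PPARγ virus, for 16 named genes; a line joins the arrays of 1 replicate number. All lines rise. Cd36 and Igf1 reached the test limit only through their compound arrays, so they had to differ. Fabp4 has the largest mean change, and Cd36, Igf1, Gsta4 and Igfbp1 start from levels that differ widely between replicates.

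Of genes that take up, bind and activate fatty acids, 4 rose. Fabp4, the cytosolic fatty acid-binding protein of fat cells and macrophages, read 58.0, 41.2, 25.5 and 68.0 in vehicle replicates 1 to 4 and 585.4, 780.7, 259.8 and 662.2 in compound. The groups lay far apart, with replicate 3 the lowest on both sides. The rise was 10.7-fold (95% confidence interval 8.42 to 13.6; log2 change 3.42 ± 0.16, adjusted p = 1.22e-06). Pair by pair the log2 change was 3.24, 4.10, 3.13 and 3.20.

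Cd36, a fatty acid translocase of the plasma membrane, had 2 probe sets, 1 of them shared with Cd36l1. The shared one read 310.4, 362.1, 246.9 and 459.2 in vehicle and 1060.5, 1487.7, 1315.8 and 1315.8 in compound. Its rise was 3.79-fold (1.92 ± 0.13, adjusted p = 2.05e-05). The probe set of Cd36 alone went from 10.8, 19.9, 2.8 and 17.1 to 53.9, 127.1, 90.8 and 84.4. Every vehicle value of this probe set lay under the limit for testing, so it was not tested in any fit that left out a pair.

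Lpl, the lipase that frees fatty acids from circulating triglyceride, rose 2.22-fold (1.15 ± 0.16, adjusted p = 0.00995). Vehicle arrays of Lpl read 364.9, 147.2, 297.1 and 146.5 and compound arrays 756.3, 529.6, 527.5 and 283.6. The groups overlapped, since vehicle replicate 1 was above compound replicate 4, but each pair rose. Acsl1, an acyl-CoA synthetase, went from 219.0, 217.3, 245.6 and 264.1 to 463.2, 396.9, 331.5 and 424.4, a 1.69-fold rise without overlap (0.76 ± 0.10, adjusted p = 0.00877). A change of 0.74 ± 0.18 on the other Acsl1 probe set missed the threshold (adjusted p = 0.171). Of the 21 genes of the uptake, binding and activation list, 15 were tested. Of these, 4 rose (Cd36 through its compound arrays alone) and 0 fell, against 0.357% and 0.0397% of all tested probe sets. The list's median change was 0.25, against -0.02 over all tested probe sets. Of the 15, 11 had a change above 0, which was true of 45% of all tested probe sets.

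Control of stored fat moved in the same contrast. G0s2, an inhibitor of adipose triglyceride lipase, read 364.8, 488.5, 367.5 and 508.8 in vehicle and 895.2, 1255.6, 737.4 and 1167.1 in compound. It rose 2.31-fold, with a narrow interval of 2.06 to 2.58 (1.21 ± 0.07, adjusted p = 1.58e-05). Plin2, the coat protein of lipid droplets outside fat cells, read 875.7, 944.5, 546.5 and 1168.9 in vehicle and 1146.0, 1707.9, 1009.8 and 1515.2 in compound. The ranges overlapped. Plin2 rose 1.54-fold (0.62 ± 0.10, adjusted p = 0.0191), while the other Plin2 probe set stood at 0.24 ± 0.12 (adjusted p = 0.593). Of 14 droplet and lipolysis genes with a probe set, 8 were tested, 2 rose and 0 fell. Over all tested probe sets 0.357% rose and 0.0397% fell. All 8 changes were above 0, as were 45% of all tested, with a median of 0.45. The caveola gene Cav1 and the lipase gene Pnpla2 each stood at 0.45 and did not pass (adjusted p = 0.168 and 0.417).

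Triglyceride synthesis was represented by its glycerol supply and its last step. Gpd1, which makes glycerol 3-phosphate, read 440.7, 187.9, 347.0 and 270.5 in vehicle and 761.4, 463.9, 599.3 and 474.6 in compound, a 1.88-fold rise without overlap (0.91 ± 0.10, adjusted p = 0.00147). Dgat2, the acyltransferase that closes the triglyceride molecule, read 188.0, 202.3, 163.0 and 249.6 in vehicle and 305.7, 391.3, 252.2 and 391.7 in compound. Here the lowest compound array was 252.2 and the highest vehicle array 249.6, so the groups just failed to overlap, and the change was 1.65-fold (0.72 ± 0.09, adjusted p = 0.00289). Of 9 tested genes of the list 2 rose and 0 fell, with a median of 0.29. Over all tested probe sets 0.357% rose and 0.0397% fell. One of the list's tested genes, Aqp7, reached the test limit only through its compound arrays. Pck1, a gene of glycerol formation, stood at 0.83 (adjusted p = 0.333).

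Among oxidation genes, 1 of the peroxisome and 2 of the mitochondrion rose. Pex11a, a membrane protein of peroxisome division, read 91.9, 78.5, 98.2 and 74.2 in vehicle and 184.4, 154.2, 187.0 and 130.7 in compound (1.86-fold; 0.90 ± 0.13, adjusted p = 0.0124). Decr1, a dienoyl-CoA reductase of mitochondria, rose 1.43-fold from 371.5, 354.2, 389.9 and 436.8 to 517.0, 504.6, 574.9 and 627.8 (0.51 ± 0.07, adjusted p = 0.0101). Its 4 pair changes, 0.47, 0.51, 0.55 and 0.52, were nearly equal. Acaa2, the thiolase of the mitochondrial spiral, rose 1.41-fold (0.49 ± 0.08, adjusted p = 0.0304), from 373.5, 240.5, 327.5 and 507.2 to 434.3, 373.6, 490.1 and 743.2. Groups overlapped for Acaa2 only among these 3.

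Among 16 tested peroxisome genes 1 rose and 0 fell, with a median of 0.18. Over all tested probe sets 0.357% rose and 0.0397% fell. Ehhadh, among the 16, reached the test limit only through its compound arrays. The isomerase gene Eci2 (0.54 ± 0.10, adjusted p = 0.0549) lay just beyond the threshold. Among 22 tested genes of mitochondrial fatty acid oxidation and fuel choice 2 rose and 0 fell, with a median of 0.20. Of the 22, 10 were higher in every pair and 0 were lower in every pair, against 7.76% and 10.4% of all tested probe sets. The electron transfer gene Etfdh (0.53 ± 0.10, adjusted p = 0.0559) and the acyl-CoA dehydrogenase gene Acadvl (0.37 ± 0.10, adjusted p = 0.234) did not pass.

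Angptl4, a secreted inhibitor of lipoprotein lipase, read 271.4, 116.7, 81.3 and 131.3 in vehicle and 722.1, 890.4, 420.8 and 581.1 in compound. Its 4.51-fold rise (2.17 ± 0.20, adjusted p = 5.71e-04) ranged from 1.40 in pair 1, whose vehicle array was the highest, to 2.88 in pair 2 on the log2 scale. Together the 6 fat metabolism lists held 123 genes. Of these 104 had a probe set, 74 were tested and 30 were too dim to test. Of the 74, 12 rose (16.2%, against 0.357% of all tested probe sets; 1 of the 12, Cd36, through its compound arrays alone) and 0 fell. Their median change was 0.22, 32 were higher in every pair and 2 were lower in every pair. Over all tested probe sets the shares were 7.76% higher and 10.4% lower. Besides Cd36, Aqp7 and Ehhadh reached the test limit only through their compound arrays. All 3 stay in these counts and in the median. These lists were chosen with earlier results of these arrays known, so their counts describe the response and are not independent evidence of its direction.

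**Figure D2:**
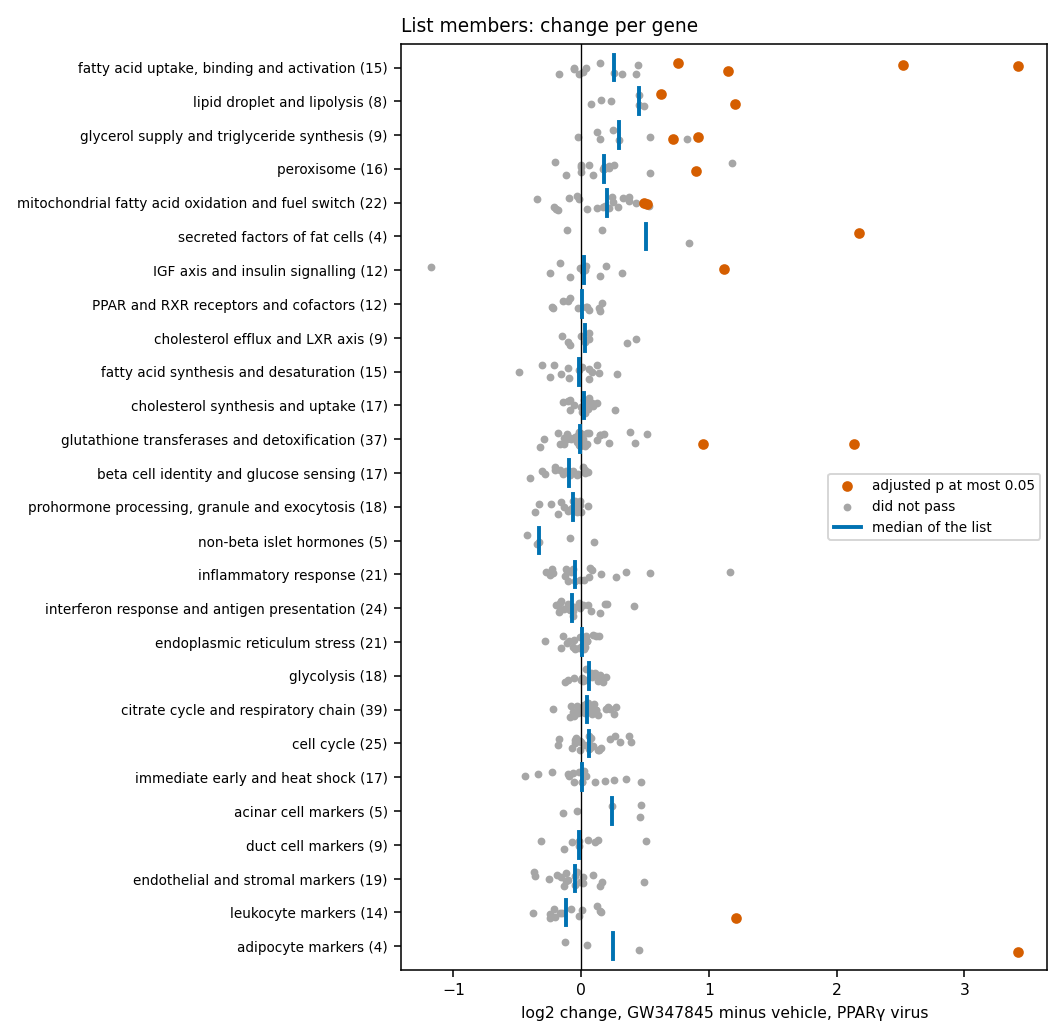
Log2 change with GW347845 under the PPARγ virus (horizontal axis) for each tested member of 27 gene lists (number tested in brackets); orange points passed at an adjusted p of at most 0.05, grey points did not, and the blue bar is the list's median. Orange points gather in the fat metabolism lists at the top, where medians lie between 0.18 and 0.51, while most other medians lie near 0.

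Outside fat metabolism, 2 glutathione transferases rose. Gsta4, a glutathione transferase that conjugates products of lipid peroxidation, read 148.7, 64.8, 125.5 and 36.2 in vehicle and 587.2, 197.6, 630.0 and 271.4 in compound. Levels differed widely between replicates, with replicates 1 and 3 high and 2 and 4 low on both sides. The change was 4.39-fold within pairs (2.13 ± 0.18, adjusted p = 2.83e-04), and without the pair term the adjusted p was 0.171. Mgst1, a microsomal glutathione transferase, rose 1.93-fold from 506.0, 419.8, 400.3 and 542.7 to 977.8, 1035.5, 721.1 and 899.6 (0.95 ± 0.09, adjusted p = 5.71e-04; 0.185 without the pair term). Of 37 tested detoxification genes in their list 2 rose and 0 fell, against 0.357% and 0.0397% of all tested probe sets. The list's median was -0.01, and that of all tested probe sets -0.02. Gstt1, another glutathione transferase, stood at 0.51 (adjusted p = 0.225), and the quinone reductase gene Nqo1 at -0.32 (adjusted p = 0.199).

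In the insulin-like growth factor axis, Igfbp1 rose. Igfbp1, a circulating binding protein that restrains IGF action, read 172.3, 65.4, 110.8 and 43.3 in vehicle and 280.1, 132.8, 315.1 and 116.4 in compound, a 2.17-fold rise in which the groups overlapped (1.12 ± 0.13, adjusted p = 0.00289; 1.00 without the pair term). One probe set of Igf1 itself read 43.3, 5.4, 12.2 and 8.5 in vehicle and 92.7, 84.5, 55.2 and 82.9 in compound. Of the vehicle arrays only replicate 1 was above the test limit of 39.3. The other Igf1 probe set went from 57.5 ± 7.84 to 73.4 ± 13.3 (SD, n = 4 each), a change of 0.32 ± 0.16 that did not pass (adjusted p = 0.611). Of 12 tested genes of the axis, with the Igf1 probe set of higher mean standing for that gene, 1 rose and 0 fell. Over all tested probe sets 0.357% rose and 0.0397% fell. Igfbp2, which was not called, read 48.7, 28.4, 33.3 and 45.2 in vehicle and 33.5, 9.8, 14.1 and 7.8 in compound. It reached the test limit only through its PPARγ virus vehicle arrays.

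The remaining named rises were of varied function. Pdpn, the membrane mucin podoplanin, had pair changes of 0.63, 0.83, 0.71 and 0.71 and a 1.65-fold rise (adjusted p = 0.00143), although the groups overlapped at 150.2, 206.0, 138.1 and 240.9 against 234.8, 368.6, 228.3 and 397.8. The transglutaminase gene Tgm2 (1.69-fold, adjusted p = 0.0332), the collagen chaperone gene Serpinh1 (1.43-fold, adjusted p = 0.0437) and the protease inhibitor gene Serpine2 (1.44-fold, adjusted p = 0.0245) rose. So did Afdn, which links nectins to actin (1.45-fold, adjusted p = 0.0331), and the actin-associated gene Synpo (1.52-fold, adjusted p = 0.0245). The heparan sulphate sulphotransferase gene Hs3st1 rose 2.05-fold (adjusted p = 0.0245). The ribonuclease gene Ang read 81.0, 28.6, 69.8 and 52.4 in vehicle and 196.9, 77.1, 160.1 and 94.3 in compound. Duox2, an oxidase that makes hydrogen peroxide, rose 1.98-fold (adjusted p = 0.0314).

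Srp9, a subunit of the signal recognition particle, read 566.1, 700.0, 765.8 and 947.5 in vehicle and 1049.0, 1216.0, 1131.7 and 1596.7 in compound (1.68-fold; 0.75 ± 0.08, adjusted p = 0.00195). The nucleoporin gene Nup107 (2.03-fold, adjusted p = 0.0245) and C8h15orf39 (1.67-fold, adjusted p = 0.0306) also passed. Lratd1 read 31.6, 55.6, 18.7 and 46.2 in vehicle and 60.1, 85.0, 49.5 and 106.5 in compound. A further 4 rises lay beyond the 30 that the naming rule takes: Dhrs3, a retinal reductase gene, Irf2bp2, the fibrinogen gene Fga and the protease gene Prss22, with an adjusted p between 0.0440 and 0.0479; these were named after their values were seen. Plek, which encodes pleckstrin, read 128.8, 34.7, 58.8 and 65.0 in vehicle and 178.4, 112.4, 178.8 and 163.7 in compound. It was the 1 called of 14 tested leukocyte markers, against 0.397% of all tested probe sets, and the median of that list was -0.12.

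Of the 4 falls 3 named a gene. Vash1, an angiogenesis inhibitor gene, went from 391.0, 287.6, 340.7 and 273.6 to 279.5, 227.2, 233.3 and 206.2, falling by 0.44 on the log2 scale (adjusted p = 0.0257). Arhgef28 fell by 0.78 (adjusted p = 0.0306), from 72.1, 63.3, 47.4 and 70.0 to 34.4, 39.4, 21.9 and 45.9, without overlap. Bclaf1, a nuclear RNA-processing gene, fell by 0.37 (adjusted p = 0.0440) on 1 probe set, and its other probe set stood at -0.05 ± 0.11 (adjusted p = 0.918). The fourth names no gene and read 58.2, 43.5, 63.9 and 42.7 in vehicle and 8.3, 8.0, 36.7 and 9.3 in compound. None of the 4 falls passed without the pair term, nor in the fit without replicate 1. The 3 that named a gene passed in 0 of the 4 fits that left out a pair. Just outside the threshold stood Dkc1, a gene of ribosomal RNA modification (-0.80 ± 0.15, adjusted p = 0.0556). Agps, higher with compound and also not called, read 27.7, 63.5, 16.4 and 38.4 in vehicle and 51.8, 101.6, 48.4 and 83.7 in compound. It reached the test limit only through those compound arrays.

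**Figure D3:**
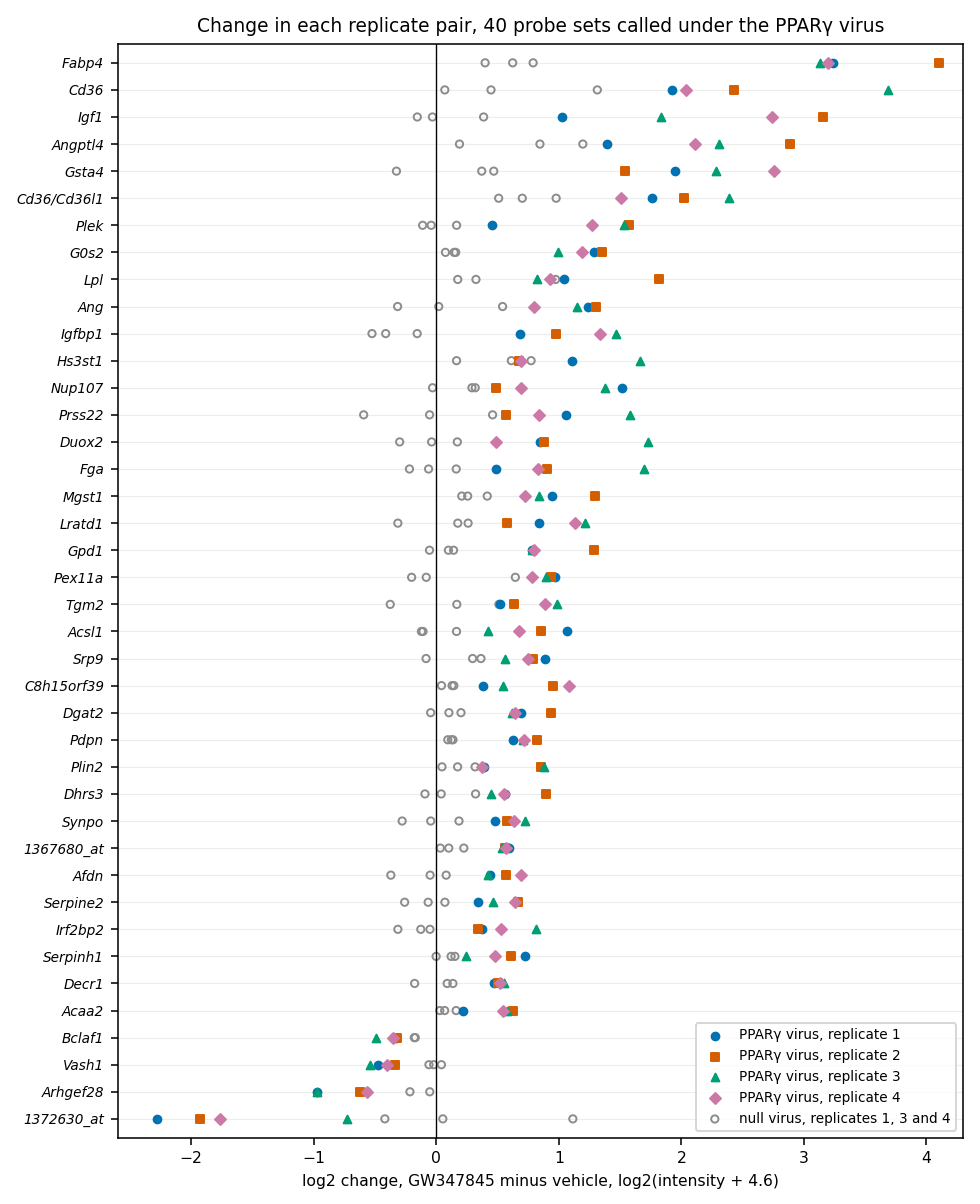
Log2 change with GW347845 (horizontal axis) in each replicate pair, for the 40 probe sets called under the PPARγ virus: filled symbols are the 4 PPARγ virus pairs, open circles the 3 null virus pairs. Filled symbols lie on 1 side of 0 in every line; the open circles lie mostly between -0.5 and 1.

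Functional genes of the beta cell did not pass in either direction. Over all tested probe sets 0.397% were called and 8.71% had an unadjusted p under 0.05. In lists of this size 0 calls, here and below, is near that share. Of 17 tested genes of beta cell identity and glucose sensing 0 passed with limma, 4 had an unadjusted p under 0.05, and 13 were below 0, with a median of -0.10. Neurod1 (-0.31 ± 0.12, adjusted p = 0.463) and Pdx1 (-0.20 ± 0.09, adjusted p = 0.522), transcription factors of the beta cell, had the smallest p. Of 18 tested genes of prohormone processing, granules and exocytosis 0 passed, 2 had an unadjusted p under 0.05, and 17 were below 0, with a median of -0.07. Across all tested probe sets 55% were below 0. Insulin genes stood at -0.02 ± 0.08 (Ins1, adjusted p = 0.955) and 0.03 ± 0.07 (Ins2, adjusted p = 0.925).

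Genes that make fatty acids or cholesterol gave no calls, against 0.397% called and 8.71% at an unadjusted p under 0.05 over all tested probe sets. Of 15 tested genes of fatty acid synthesis and desaturation 0 passed, 2 had an unadjusted p under 0.05 and the median was -0.01; Elovl5, an elongase, was nearest (0.28 ± 0.06, adjusted p = 0.111). Cholesterol synthesis and uptake had 0 of 17 passing (1 at an unadjusted p under 0.05, median 0.02), and cholesterol efflux and the LXR axis 0 of 9 (2 at an unadjusted p under 0.05, median 0.03). Of 12 tested receptors and cofactors 0 passed and 0 had an unadjusted p under 0.05. In the citrate cycle and respiratory chain 0 of 39 passed and 5 had an unadjusted p under 0.05. Of the 39, 31 were above 0, with a median of 0.05, and 11 were higher in every pair. Over all tested probe sets 45% were above 0 and 7.76% were higher in every pair.

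Against 0.397% called over all tested probe sets, inflammatory genes gave 0 calls in 21 tested (3 at an unadjusted p under 0.05, median -0.05). Among them Nos2, the inducible nitric oxide synthase gene, stood at 1.16 ± 0.30 (adjusted p = 0.232). The chemokine gene Cxcl1 stood at 0.54 ± 0.13 (adjusted p = 0.189). Each was higher in 4 of 4 pairs, as were 7.76% of all tested probe sets, but by only 0.07 and 0.09 in pair 4. Vehicle arrays of Nos2 read 9.9, 65.4, 11.6 and 7.8, with only replicate 2 above the test limit of 39.3. Interferon response genes gave 0 calls in 24 (1 at an unadjusted p under 0.05, median -0.07), endoplasmic reticulum stress genes 0 in 21 (1, median 0.01), glycolysis genes 0 in 18 (0, median 0.06), cell cycle genes 0 in 25 (3, median 0.06) and immediate early and heat shock genes 0 in 17 (1, median 0.00).

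Hormone genes of the other islet cells varied widely between replicates. Gcg, the glucagon gene, read 3788.0, 420.8, 4191.7 and 1231.3 in vehicle and 3606.2, 180.8, 3910.6 and 1221.3 in compound. Replicates 1 and 3 were thus rich in glucagon message and replicates 2 and 4 poor, on both sides. Ppy, the pancreatic polypeptide gene, followed the same order at 2884.4, 133.6, 2753.6 and 691.8 in vehicle. Over the 5 matched non-beta hormone genes the summed intensity ranged from 998.5 to 9837.3 in vehicle and from 498.3 to 8968.4 in compound. It was lower with compound in 4 of 4 pairs, by 1.00 on the log2 scale in pair 2 and by 0.02 to 0.13 in the other 3; 0 of 5 genes passed (3 at an unadjusted p under 0.05). Gsta4, Igfbp1, Lpl and Gpd1, among other called genes, were also higher in vehicle replicates 1 and 3 than in 2 and 4. Called genes with the reverse order, higher in vehicle replicates 2 and 4 than in 1 and 3, included G0s2, Plin2, Dgat2 and Pdpn. The part of islet makeup in the calls was not tested.

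Markers of other cell types gave 2 calls, Fabp4 and Plek, where 0.397% of all tested probe sets were called. Plek reached the test limit only through its compound arrays. Mean intensity in null virus and PPARγ virus vehicle arrays was 6.50 and 71.8 for Plek, and 17.0 and 48.2 for Fabp4. Of 9 matched adipocyte markers 5 were under the test limit in all 8 arrays, among them Plin1 (14.4 ± 2.48 in vehicle and 14.5 ± 1.57 in compound), Lep (2.12 ± 1.18 and 1.85 ± 0.40), Cfd (22.7 ± 5.20 and 32.4 ± 5.40, higher in 3 of 4 pairs) and Lipe (8.70 ± 2.43 and 15.7 ± 15.6, higher in 2 of 4 pairs; SD, n = 4 each). The Lipe mean in compound rested on replicate 1, at 39.1. The summed intensity of the 9 ranged from 292.1 to 417.2 in vehicle and from 632.1 to 1118.5 in compound, with Fabp4 as the 1 of 4 tested members to rise. Leukocyte markers summed to 1015.5 to 1886.4 in vehicle and 1212.8 to 1770.6 in compound, higher in 2 of 4 pairs, and both probe sets of the pan-leukocyte gene Ptprc were under the test limit in every array. Duct markers (7678.8 to 8879.0 over all 8 arrays), endothelial and stromal markers (3851.0 to 6945.3) and acinar markers (323.6 to 811.7) overlapped between groups, and 0 of their 9, 19 and 5 tested genes passed (2, 2 and 1 at an unadjusted p under 0.05). The duct keratin gene Krt19 stood at 0.50 ± 0.13, higher in 4 of 4 pairs (adjusted p = 0.204). The ratio of 3 prime to 5 prime signal of beta-actin, a sign of RNA integrity, was also higher with compound in 4 of 4 pairs: 10.1 to 10.5, 13.4 to 14.9, 7.58 to 11.3 and 10.2 to 11.6 in replicates 1 to 4. For Gapdh the ratio went from 12.6 to 8.39, 8.36 to 9.22, 9.25 to 9.32 and 9.90 to 11.04, lower in pair 1 and higher in the other 3. Their part in the calls was not tested.

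The null virus arrays, which share no sample with this comparison, gave each called gene's change at the islets' own receptor level. Null virus compound replicate 3 stood apart in the Gapdh ratio, at 18.85 against 8.36 to 12.6 in the other arrays used. Under the null virus limma called 0 probe sets with compound, with 411 (4.08%) at an unadjusted p under 0.05. Of the 36 probe sets that rose under the PPARγ virus, 27 (75.0%) had a null virus change above 0, against 50% of all tested probe sets. All 3 null virus pairs were higher for 13 of the 36 (36.1%), against 11% of all tested. Their median null virus change was 0.09, and their median change under the PPARγ virus 0.93. Among those with full statistics above, the largest null virus changes belonged to Angptl4 (0.74 ± 0.24), the shared Cd36 and Cd36l1 probe set (0.73 ± 0.15) and Fabp4 (0.60 ± 0.18), all known PPARγ targets of fat cells. For Fabp4 the null virus arrays read 9.8, 14.9 and 26.3 in vehicle and 20.3, 21.1 and 43.0 in compound.

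Whether the compound's change differed between viruses was tested as an interaction in the same model. It passed for 5 of 10078 probe sets (0.0496%), with 585 (5.8%) at an unadjusted p under 0.05. Fabp4 differed by 2.81 ± 0.24 (adjusted p = 0.00104), G0s2 by 1.08 ± 0.11 (adjusted p = 0.00464) and Gsta4 by 1.96 ± 0.28 (adjusted p = 0.0374). Igfbp1 differed by 1.48 ± 0.21 (adjusted p = 0.0368) with opposite signs: under the null virus it read 50.8, 45.6 and 40.2 in vehicle and 33.9, 33.1 and 35.6 in compound, lower in 3 of 3 pairs (-0.36 ± 0.16), while it rose in 4 of 4 under the PPARγ virus. The fifth names no gene and reached the test limit only through its PPARγ virus compound arrays, so it is given here as intensities. Under the PPARγ virus it read 34.5, 32.9, 61.1 and 26.2 in vehicle and 83.6, 49.4, 111.6 and 42.3 in compound. Under the null virus it read 49.5, 56.7 and 33.4 in vehicle and 25.5, 30 and 10.7 in compound. For the shared Cd36 probe set (1.19 ± 0.19, adjusted p = 0.0965), Angptl4 (1.43 ± 0.31, adjusted p = 0.377) and Lpl (0.66 ± 0.25, adjusted p = 0.788) a difference between viruses did not pass. Without the pair term 0 interactions passed, with 143 at an unadjusted p under 0.05. Leaving out a pair of either virus left 2 to 4: 3 without PPARγ virus replicate 1, 4 without replicate 2, and 2 without PPARγ virus replicate 3 or 4 or without null virus replicate 1, 3 or 4.

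**Figure D4:**
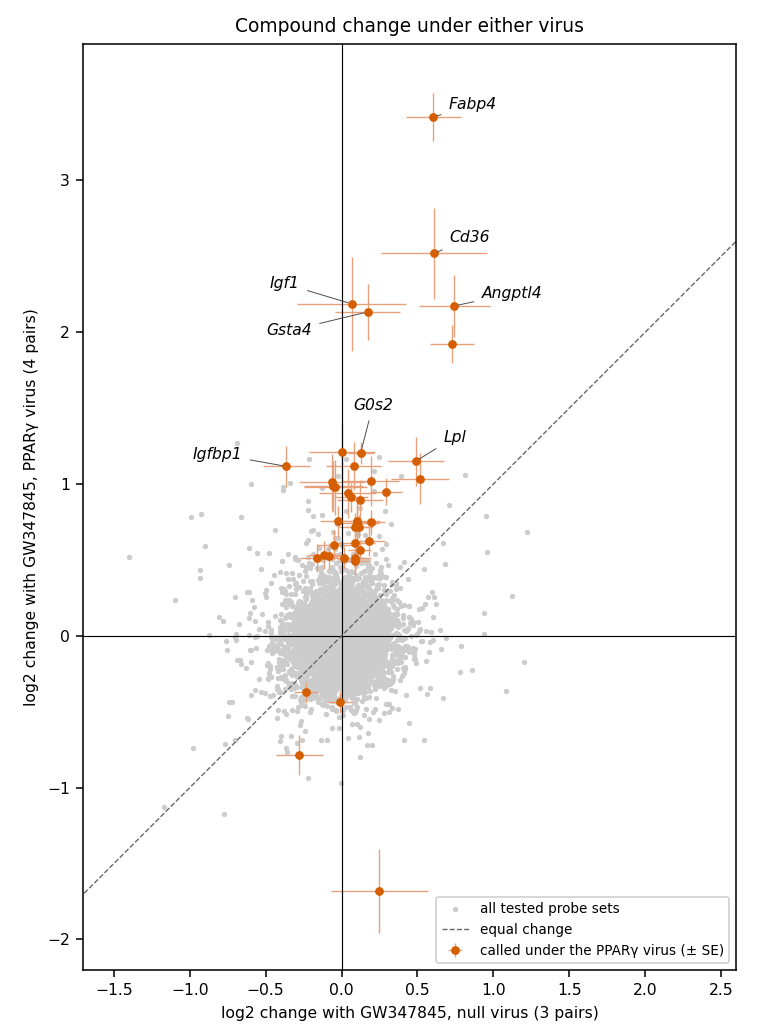
Log2 change with GW347845 under the null virus (horizontal axis, 3 pairs) and under the PPARγ virus (vertical axis, 4 pairs) for all 10078 tested probe sets (grey) and the 40 called under the PPARγ virus (orange, bars ± SE); the dashed line marks equal change. The called rises stand above the dashed line by selection; Fabp4 lies at 0.60 and 3.42, and Igfbp1 lies left of 0.

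The 36 rises were called from these same 4 pairs. Their pair medians therefore describe the calls and cannot test whether the pairs answered alike. Over the 36 rises the median log2 change was 0.81, 0.89, 0.89 and 0.76 in pairs 1 to 4. Pair 2 had the largest change of the 4 for 14 of the probe sets, pair 3 for 13, pair 1 for 6 and pair 4 for 3. Within pair 2 lay the largest changes of Fabp4 (4.10), Angptl4 (2.88), Lpl (1.82), Gpd1 (1.28) and Dgat2 (0.94). In pair 3 lay those of Igfbp1 (1.47), Duox2 (1.72) and Fga (1.69).

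The upstream sequence of the called genes was searched for the receptor's hexamer. RefSeq's promoter table (build GRCr8) matched 26 of the 37 called genes, and the 250 bases before each start were read on both strands. A direct repeat of 2 hexamers spaced by 1 base, AGGTCANAGGTCA, was found in 0 of the 26 and in 16 of 27457 genes (0.0583%). A single AGGTCA, 1 unit of such a repeat, was found in 1 of the 26 (3.85%), against 14.8% of all genes. That gene was Pdpn. Its stretch at chr5:160918998-160919097 (GRCr8, minus strand), shown because it is the 1 match, holds the hexamer in capitals, beginning 91 bases before the start:
Pdpn: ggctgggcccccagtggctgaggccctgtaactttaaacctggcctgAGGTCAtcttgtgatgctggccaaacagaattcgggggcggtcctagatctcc
These matches describe letters in a short window, and no binding was measured.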

How the data were processed

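Per the labels, RNA of rat islets was hybridised to arrays in 4 groups of 4. The authors deposited linear intensity values for 15923 probe sets, with each array scaled to a 2% trimmed mean of 150.0; the summarising software is not given in the sources used here. Null virus replicate 2, identical under both labels, was left out, so 14 arrays were fitted. A probe set was tested if above 39.3 (the 40th percentile) in at least 4 arrays; 57 controls were not tested. Probe sets that reached this limit only through the group where they were high (346 of 10078) are given as intensities where named. The exception is a flagged difference between the viruses, which is printed with its caveat. The model (limma 3.58.1, R 4.3.3, empirical Bayes with a trend) had a term for each virus and replicate number, a compound term for each virus, 5 residual degrees of freedom and a pseudocount of 4.6; the code was tested on simulated data. Calls used an adjusted p of 0.05. The numbers paired the arrays: deviations from group means correlated at 0.574 to 0.702 in the 4 PPARγ virus pairs and at 0.445 to 0.475 in the 3 null virus pairs. Of 15923 probe sets 12789 named 1 gene, 312 several and 2822 none; 12754 symbols were updated by gene identifier.

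Named were Pparg, up to 30 rises and 10 falls of single genes by adjusted p, up to 4 members of each of 27 gene lists, other probe sets of those genes, and 5 nearest the threshold. Members, lists, rule and the paired model were chosen with earlier results of these data known. Medians per array were 56.4 to 67.5; the number of arrays limits precision, and the median 95% confidence interval of a change reached 0.24 to either side. Alternatives varied pairing, arrays, filter, pseudocount, normalization and variance model. Figures used matplotlib 3.10.9 in Python 3.11.15.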

Additional observations from a re-analysis of the deposited data

Results flagged for a closer look

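In groups of 4 arrays, 1 array stood far from the other 3 in 4 of 88 checks, where chance gives about 4.4. Vehicle replicate 1 read 170.8 for Duox2, with the other vehicle arrays at 62.1 to 78.9, and 190.4 for Fga, with the others at 41.6 to 49.3. Vehicle replicate 4 read 543.1 for the rising probe set without a gene, with the others at 431.5 to 449.3. Compound replicate 3 read 36.7 for the falling probe set without a gene, with the others at 8.0 to 9.3.

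The compound's change differed between the viruses in 5 probe sets: by 2.81 for Fabp4, 1.08 for G0s2, 1.78 for a probe set without a gene, 1.48 for Igfbp1 and 1.96 for Gsta4 on the log2 scale. The probe set without a gene reached the test limit only through its PPARγ virus compound arrays. It was thus chosen for being high there, and its 1.78 cannot test a difference between the viruses. Its intensities, given in the Results, were higher in 4 of 4 PPARγ virus pairs and lower in 3 of 3 null virus pairs.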

How the results depend on the processing

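Of 40 compound calls, the fit without the replicate block gave 6. With the 8 PPARγ virus arrays alone there were 34 with the block and 2 without it. Without the filter on low intensity 21 passed, of which 19 were among the 40, and without the variance trend 24, of which 23 were. Leaving out a replicate pair or array gave 2 to 40 calls; leaving out single vehicle arrays without the block gave 7, 4, 3 and 5, and single compound arrays 3, 3, 6 and 2. Pseudocounts of 1 and 32, quantile normalization, a filter at the 60th percentile, robust variance and all 16 columns gave 31 to 53.

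Of 5 interactions, 0 passed without the replicate block, 2 without the filter and 3 without the trend; leaving out a pair gave 2 to 4, and the other settings 4 to 7. No named probe set that was called changed direction under an alternative that was run. No detection calls were used here, so how far a low intensity lies above background is unknown.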
